A study of Mus musculus with 10 samples.

Results

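The Krüppel-like factors (KLFs) measured here were Klf2, Klf3, Klf4, Klf5, Klf6, Klf9, Klf10 and Klf13, in the visual cortex of young mice that had lost 1 eye. All 13 probe sets with 1 of these 8 gene symbols were taken, of 12422 probe sets that are not controls. Each of 10 samples was read on 1 Affymetrix array. All samples came from wild-type C57Bl6 mice enucleated on one side at postnatal day 14 and sampled at postnatal day 18, after 4 days. In 5 deprived samples the cortex lay opposite the removed eye and had lost most of its visual input. In 5 non-deprived samples it lay on the side of the removed eye, where crossed fibres of the intact eye still arrive. The labels speak of 4 mice and of pooled samples without saying how animals were divided, so p-values measure the spread between these samples, which may in part be technical. No intact mouse was measured, so every difference is between the hemispheres of operated mice. The comparison asks which transcripts change when cortex loses its main eye input.

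KLFs are transcription factors that bind GC-rich and CACCC sequences through tandem zinc fingers at the end of the protein. Their other parts differ and set the partner: Klf3 represses through CtBP, Klf9, Klf10 and Klf13 recruit Sin3A, and Klf2, Klf4, Klf5 and Klf6 act largely as activators. Several KLF genes are early-response genes, and in neurons Klf4 and Klf9 are known to restrain axon growth whereas Klf6 and Klf7 favour it. Klf2 is best known from endothelium, where blood flow induces it through the kinase ERK5 and MEF2 factors.

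No KLF gene passed the test between deprived and non-deprived cortex. Klf4 had the lowest estimate, with a mean signal 29.5% lower in deprived cortex, and was the one KLF whose 95% interval did not include 0. Klf3, Klf5, Klf6, both Klf13 probe sets and 1 of the Klf9 probe sets had log2 differences between -0.05 and 0.12. Klf10 had differences of -0.19 and -0.15 on its probe sets, and the other Klf9 probe set had -0.21. Of the 13 KLF probe sets, 10 (of 7 genes) passed the filter on low signals and were tested, and Klf2 had no tested probe set. Tests were made with limma on log2(signal + 16) over 7453 probe sets, with p-values adjusted over all of them (Benjamini-Hochberg, threshold 0.05). None of the 10 passed, and their smallest limma adjusted p was 0.992, against 0% of all tested probe sets called. At an unadjusted limma p under 0.05 there was 1 of 10 (Klf4, lower), against 4.79% of all tested probe sets (2.36% lower and 2.43% higher). The exact permutation test over the arrays called none of the 7453 probe sets after adjustment and no KLF at an unadjusted p under 0.05, against 4.87% of all. Of the 10 estimates, 7 were below 0, against 48% of all tested probe sets. Their median was -0.05, against 0.0066 over all tested probe sets. The deprived and non-deprived arrays overlapped for all 10, as they did for all but 0.953% of all tested probe sets.

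**Figure D1:**
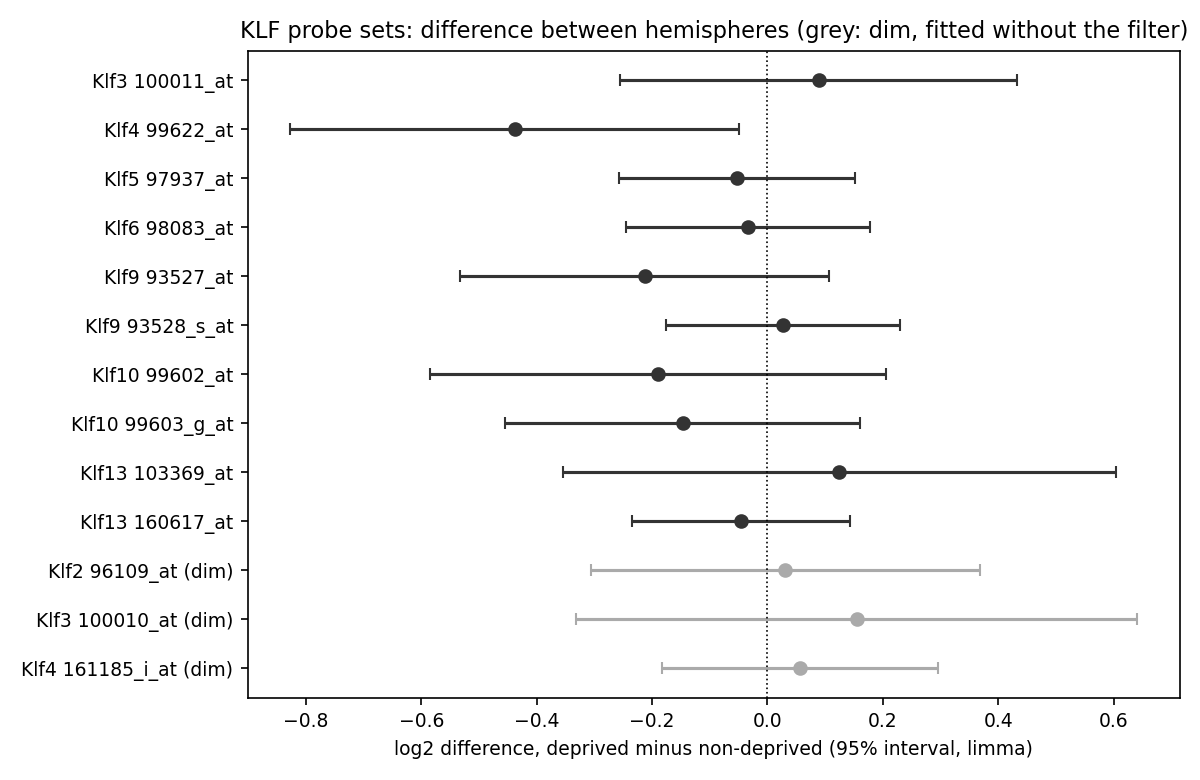
Log2 difference (deprived minus non-deprived, horizontal axis) of each KLF probe set with its 95% interval from limma; grey marks the 3 dim probe sets, fitted without the filter. The interval of Klf4 99622_at runs from -0.83 to -0.05, and all other intervals include 0.

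Among the activators, Klf4, a factor of stem cells and epithelia that also responds early to stimulation, is described first. Its promoter is shown because Klf4 had the lowest estimate, beside that of Klf2, the induced endothelial factor, and that of Klf9, the glucocorticoid- and thyroid hormone-induced member. The sequences are the 250 bases before the RefSeq start (GRCm38.p6), 5′ to 3′ on the gene's strand. Capitals mark the GC box (GGGCGG), the CRE half-site (TGACG), the EGR site (GCGNGGGCG) and the MEF2 site (CTANNNNTAG), each searched on both strands. The GC box and the EGR site can overlap. The Klf4 stretch is chr4:55532476-55532725 (minus strand), that of Klf2 chr8:72318812-72319061 (plus strand) and that of Klf9 chr19:23140976-23141225 (plus strand).
Klf4 promoter: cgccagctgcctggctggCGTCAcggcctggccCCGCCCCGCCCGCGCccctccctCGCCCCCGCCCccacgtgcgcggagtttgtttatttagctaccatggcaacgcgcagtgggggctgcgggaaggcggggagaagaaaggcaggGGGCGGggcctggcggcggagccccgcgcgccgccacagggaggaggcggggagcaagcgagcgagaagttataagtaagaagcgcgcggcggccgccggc
Klf2 promoter: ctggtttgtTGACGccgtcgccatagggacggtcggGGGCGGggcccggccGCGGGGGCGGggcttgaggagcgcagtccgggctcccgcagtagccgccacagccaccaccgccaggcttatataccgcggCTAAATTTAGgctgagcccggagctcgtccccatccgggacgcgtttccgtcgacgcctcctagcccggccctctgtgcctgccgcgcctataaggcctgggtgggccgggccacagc
Klf9 promoter: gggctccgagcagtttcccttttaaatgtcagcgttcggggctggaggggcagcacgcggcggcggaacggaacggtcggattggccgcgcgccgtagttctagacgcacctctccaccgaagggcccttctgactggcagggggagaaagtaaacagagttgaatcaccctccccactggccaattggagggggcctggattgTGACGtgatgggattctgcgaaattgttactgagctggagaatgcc

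The Klf4 stretch held 4 GC boxes, 2 EGR sites and 1 CRE half-site. That of Klf2 held 2 GC boxes, 1 EGR site, 1 CRE half-site and 1 MEF2 site, CTAAATTTAG, from 118 to 109 bases before the start. The Klf9 stretch held 1 CRE half-site, 42 to 46 bases before the start, and no match to the GC box, EGR or MEF2 letters. Other motifs were searched and are not marked by capitals. Of these, the Klf9 stretch held 1 CACCC box, 3 CCAAT boxes and 1 AP-1 site (TGAATCA, 89 to 83 bases before the start). The Klf2 stretch held 1 CACCC box, and the Klf4 stretch held no CACCC box, CCAAT box or AP-1 site. Of 32851 RefSeq promoter stretches of this length, 32.7% held a GC box, 17.8% a CRE half-site and 4.70% an EGR site. A match to the MEF2 letters was in 3.20%. These letters too allow any base at N, whereas the Klf2 match has only A and T there. A CACCC box was in 52.0%, a CCAAT box in 33.8% and a match to the AP-1 search letters in 6.75%. Of the 8 KLF genes, 6 had a promoter in the table, and Klf2, Klf3 and Klf4 were those with an EGR site. These promoters were GC-rich, from 59.6% (Klf9) to 78.4% (Klf3), where the median of all promoters was 52.4%. A match describes the letters and not a bound factor.

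On the tested Klf4 probe set (99622_at), the deprived signals were 111, 162, 153, 146 and 117 in replicates 1 to 5. The non-deprived signals were 133, 261, 196, 224 and 164 (arbitrary units). All 5 deprived arrays lay below the median of the non-deprived arrays. The groups overlapped through non-deprived replicate 1 alone, whose 133 lay below deprived replicates 2, 3 and 4. The mean log2 value of this probe set lay at percentile 46.3 of the probe sets that are not controls, not far above the filter at percentile 40. The means were 138 ± 22.5 and 195.5 ± 50.1 (SD, n = 5 each), a log2 difference of -0.44 ± 0.18 (SE). The limma unadjusted p was 0.03 and the adjusted p 0.992, and the exact permutation test gave an unadjusted two-sided p of 0.0556, where the smallest p the design allows is 0.00794. Without non-deprived replicate 1 the log2 difference was -0.56, and without non-deprived replicate 2, the highest array, it was -0.33. The estimate was below 0 in all 20 alternative settings that kept this probe set, from -0.56 to -0.33. In 5 of the 20, all with 1 array left out, the unadjusted limma p was no longer under 0.05. In a bulk sample, fewer cells that express Klf4 and less Klf4 RNA per cell cannot be told apart. The other Klf4 probe set (161185_i_at, an incomplete set) had signals of 1 to 4.7 on all 10 arrays and was not tested.

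**Figure D2:**
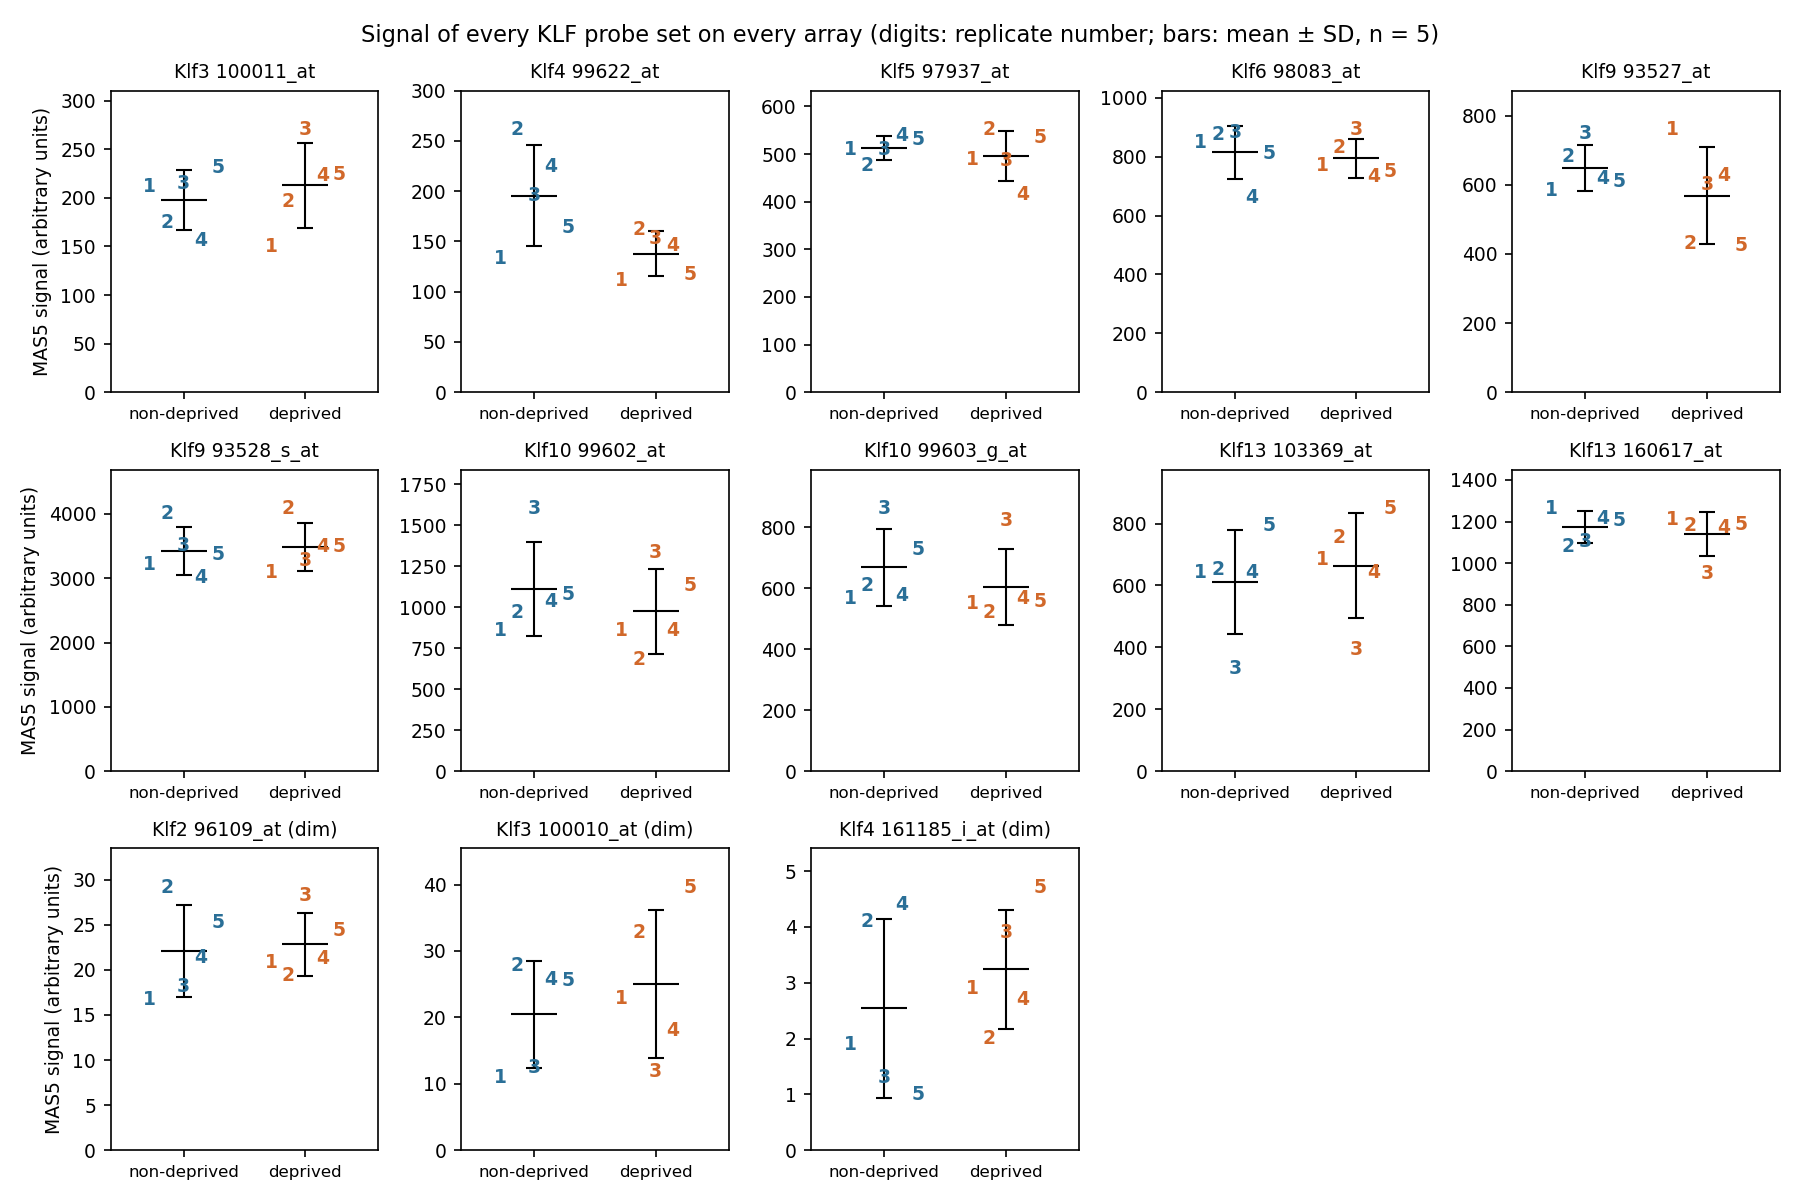
MAS5 signal (vertical axis, arbitrary units, from 0) of each of the 13 KLF probe sets in non-deprived (blue) and deprived (orange) cortex; each digit is 1 array by its replicate number, and bars give mean ± SD (n = 5). For Klf4 99622_at the deprived arrays lie at 111 to 162 and the non-deprived arrays at 133 to 261, and the ranges of the groups overlap in the other panels as well.

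Klf2 was dim in both groups. Its deprived signals were 20.8, 19.4, 28.2, 21.3 and 24.4 in replicates 1 to 5, and its non-deprived signals 16.7, 29.1, 18.2, 21.4 and 25.3. The lowest and the highest of these arrays were both non-deprived. The means were 22.8 ± 3.52 and 22.1 ± 5.10 (SD, n = 5 each). Fitted without the filter, the log2 difference was 0.03 with a 95% interval from -0.31 to 0.37. The pseudocount of 16 is close to these signals, so differences on this scale are compressed. Of 12 endothelial markers on the array, all 12 were tested, and none passed or reached an unadjusted limma p under 0.05. Their estimates were below 0 for 6 and above 0 for 6, with a median log2 difference of 0.02 and a range from -0.25 to 0.29. The summed endothelial signal was 4174 to 4861 in deprived and 4547 to 4924 in non-deprived arrays. The 2 brightest markers both had estimates below 0: Eng, a TGF-beta co-receptor, had means of 1100 and 1163, and the tight-junction gene Cldn5 had 891 and 1021, a log2 difference of -0.19 ± 0.09 (SE).

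Klf5, an activator of growth genes in epithelia and smooth muscle, had the narrowest non-deprived group of all tested KLF probe sets. Its deprived signals were 489, 551, 487, 416 and 534 in replicates 1 to 5, against 509, 476, 509, 539.5 and 530.1. The deprived arrays reached both further down (replicate 4) and further up (replicate 2). The means were 495 ± 52.4 and 513 ± 24.6 (SD, n = 5 each; log2 -0.05 ± 0.10 SE). The 95% interval ran from -0.26 to 0.15. Without deprived replicate 4 the estimate was 0.0064.

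Klf6, an early-response gene of injured tissue that favours axon growth, had deprived signals of 769, 829.9, 891, 733 and 748 in replicates 1 to 5. The non-deprived signals were 847, 876, 882, 662 and 809. The lowest array was non-deprived replicate 4 and the highest deprived replicate 3. The means were 794 ± 65.5 and 815 ± 90.2 (SD, n = 5 each), with a log2 difference of -0.03 and a 95% interval from -0.24 to 0.18.

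Of the repressors, Klf3, a CtBP-dependent factor of blood and fat cells, had 1 tested probe set (100011_at). Its deprived signals were 150.3, 197, 270.0, 223 and 224 in replicates 1 to 5, and its non-deprived signals 211, 175, 215, 156 and 231. Both the lowest and the highest array belonged to the deprived group. The means were 213 ± 43.8 and 198 ± 30.9 (SD, n = 5 each; log2 0.09 ± 0.16 SE). The second Klf3 probe set (100010_at) had signals of 11 to 39.5, below the filter, with means of 25.0 and 20.5.

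Klf9 responds to glucocorticoids and thyroid hormone and rises as cortical neurons mature. Its first probe set (93528_s_at, of a type shared between transcripts) had deprived signals of 3089, 4080.1, 3277, 3492 and 3492 in replicates 1 to 5. The non-deprived signals were 3209, 4012, 3517, 3008 and 3369. Replicate 2 was the highest array of both groups. The means were 3486 ± 372 and 3423 ± 379 (SD, n = 5 each). Their log2 difference was 0.03 (95% interval, -0.18 to 0.23). The sign of this estimate turned under median scaling (-0.0077), without deprived replicate 2 (-0.03) and without non-deprived replicate 4 (-0.02).

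The other Klf9 probe set (93527_at) spread more widely in deprived cortex. The deprived signals were 759, 431, 602, 626 and 426 in replicates 1 to 5, against 583, 682, 749, 619 and 609. Deprived replicates 2 and 5 lay below all non-deprived arrays, and deprived replicate 1 above all of them. The means were 569 ± 141 and 648.5 ± 66.9 (SD, n = 5 each; log2 -0.21 ± 0.15 SE). Without deprived replicate 1 the log2 difference was -0.32, and without deprived replicate 5 it was -0.12. Over the 10 arrays the Pearson r between the Klf9 probe sets was -0.36 (permutation p = 0.317, the same after adjustment over the 3 genes with a pair of tested probe sets). Spearman rho was -0.09 (permutation p = 0.815). Without the 2 arrays farthest from the median, r was 0.20.

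Klf10, first known as a TGF-beta-induced early gene, varied more between arrays of 1 group than between the groups. On 99602_at the deprived signals were 859.9, 679, 1336, 860.3 and 1135 in replicates 1 to 5, and the non-deprived signals 859, 970.2, 1600.0, 1034 and 1079. Replicate 3 was the highest array of both groups. The means were 974 ± 259.97 and 1109 ± 287 (SD, n = 5 each; log2 -0.19 ± 0.18 SE). On 99603_g_at, of a type that reads a group of similar sequences, the deprived signals were 550.1, 519, 823, 565 and 556, against 566, 609, 859.9, 577 and 726. Replicate 3 was again the highest in both groups. The means were 603 ± 124 and 668 ± 125 (SD, n = 5 each; log2 -0.15 ± 0.14 SE). Without non-deprived replicate 3 both estimates were -0.05, and without deprived replicate 3 they were -0.31 and -0.26. Both Klf10 probe sets rose and fell together over the 10 arrays. Pearson r was 0.87 (permutation p = 0.0012; adjusted over the same 3 genes, 0.0036) and Spearman rho 0.76 (permutation p = 0.0153, adjusted 0.0458). Without the 2 arrays farthest from the median, r was 0.76.

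Klf13, which also drives the chemokine gene Ccl5 in T cells, behaved in the opposite way on 1 of its probe sets. On 103369_at the deprived signals were 684, 753.5, 393, 642 and 848 in replicates 1 to 5, and the non-deprived signals 641, 650.2, 333, 642 and 793. Replicate 3 was the lowest and replicate 5 the highest array of both groups. The means were 664 ± 170.2 and 612 ± 169 (SD, n = 5 each; log2 0.12 ± 0.22 SE). Without non-deprived replicate 3 the estimate turned to -0.07, and without deprived replicate 3 it was 0.30.

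On the other Klf13 probe set (160617_at) the deprived signals were 1208, 1179.9, 952, 1169 and 1186, against 1261, 1080.5, 1107, 1217 and 1205. Deprived replicate 3 was the lowest of all 10 arrays, and non-deprived replicate 2, not 3, was the lowest of its group. The means were 1139 ± 106 and 1174 ± 77.0 (SD, n = 5 each). Their log2 difference was -0.05 (95% interval, -0.24 to 0.14). It turned to 0.02 without deprived replicate 3. The 2 Klf13 probe sets had a Pearson r of 0.66 over the 10 arrays (permutation p = 0.0913, adjusted 0.137) and a Spearman rho of 0.24 (permutation p = 0.515, adjusted 0.772). This relation rested on the farthest arrays, since r was 0.05 without the 2 of them.

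**Figure D3:**
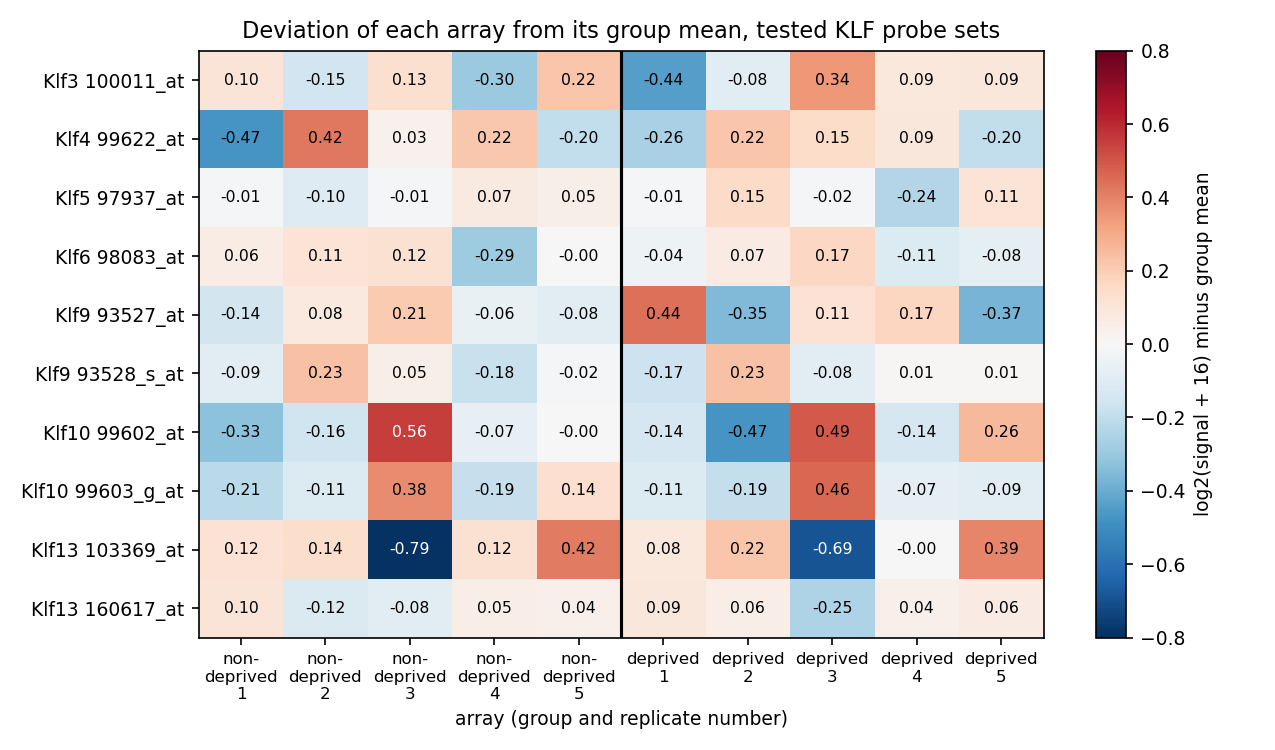
Deviation of each array from its own group mean on the log2(signal + 16) scale (colour and digits) for the 10 tested KLF probe sets (rows) on the 10 arrays (columns). The replicate 3 arrays of both groups stand out, at 0.38 to 0.56 for the Klf10 probe sets and at -0.79 and -0.69 for Klf13 103369_at.

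These deviations were larger than the hemisphere differences on the same probe sets. Klf10 99602_at lay 0.56 above its group mean in non-deprived replicate 3 and 0.49 above it in deprived replicate 3. Klf13 103369_at lay 0.79 below its group mean in the first of these arrays (deviation -0.79) and 0.69 below it in the other (-0.69). The labels give no batch, and do not say whether samples of the same number share animals. The within-group coefficient of variation of the tested KLF probe sets ranged from 4.80% (Klf5, non-deprived) to 27.5% (Klf13 103369_at, non-deprived).

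The genes whose pattern over the 10 arrays was most like that of Klf4 were Nr4a1, an orphan nuclear receptor, and Btg2, an antiproliferative gene, both early-response genes. The measure was Pearson's r of log2(signal + 16), and the 2 highest were taken from all tested probe sets of 1 other gene; as they were chosen for being highest, no p is given. Nr4a1 had r = 0.92 and rho = 0.94 with Klf4, and r = 0.90 without the 2 arrays farthest from the Klf4 median. Btg2 had r = 0.91, rho = 0.90 and, without those arrays, r = 0.83. With each group centred on its own mean, r was 0.88 for Nr4a1 and 0.91 for Btg2, on the same arrays for which these genes were chosen. Nr4a1 signals were 1337, 2454, 2299, 2087 and 1770.4 in deprived replicates 1 to 5 and 2305, 4145, 3558, 4409 and 3651 in non-deprived ones. Replicate 1 was the lowest array of both groups for Nr4a1, as for Klf4. The log2 differences were -0.85 ± 0.18 (SE; limma adjusted p = 0.361) for Nr4a1 and -0.64 ± 0.13 (adjusted p = 0.326) for Btg2, against -0.44 for Klf4.

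**Figure D4:**
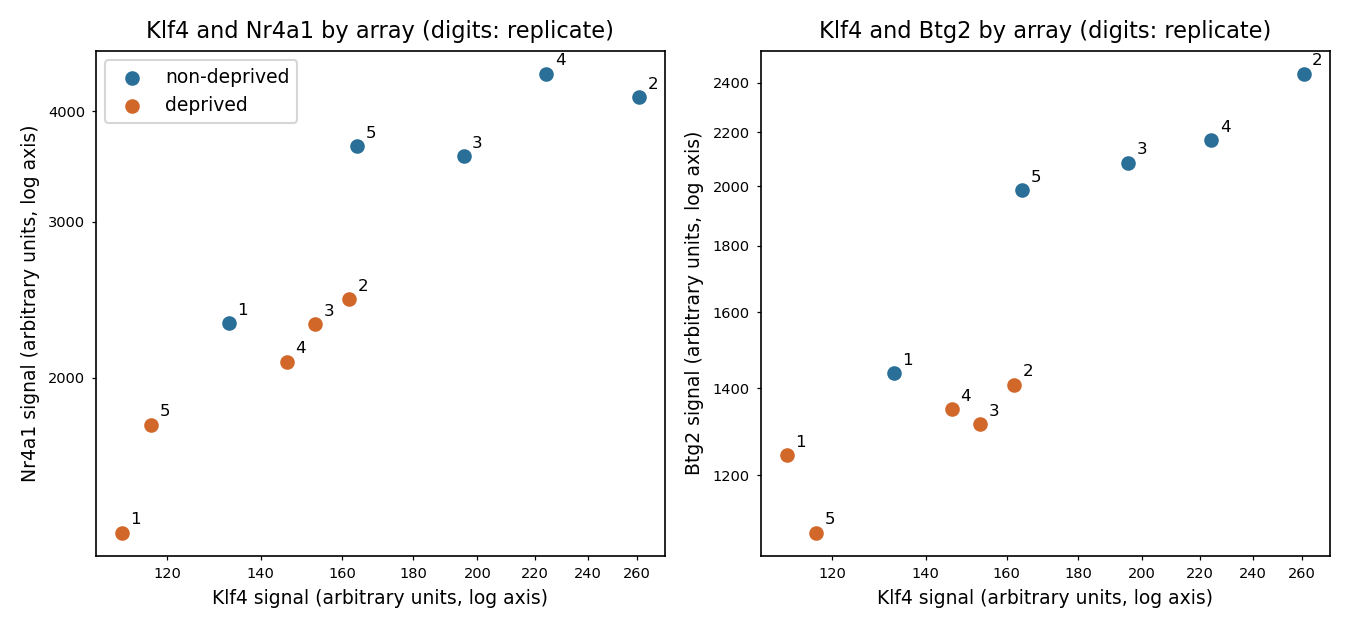
Signal of Klf4 (horizontal, log axis, arbitrary units) against Nr4a1 (left) and Btg2 (right; vertical, log axes) on the 10 arrays, with digits for the replicate number. Arrays with more Klf4 signal tended to have more Nr4a1 and Btg2 signal (r = 0.92 and 0.91 over the 10 arrays), and non-deprived replicate 1 lies beside the deprived arrays.

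Genes around the KLFs were counted with 1 probe set a gene, over lists chosen with earlier results of these data known. Of 7 other KLF and Sp genes on the array, 5 were tested and none passed; 4 of the 5 estimates were above 0, with a median of 0.11. Klf1, the erythroid activator of globin genes, had means of 195 in deprived and 153 in non-deprived cortex, a log2 difference of 0.36 ± 0.25 (SE). The erythroid markers had a summed signal of 3540 to 8185 and 3994 to 5264, with Hba-a1 at means of 4169 ± 1578 and 3462 ± 433 (SD, n = 5 each). Hbb-b2, the next brightest, had means of 948 and 913, and 1 of the 4 tested erythroid markers had an estimate below 0. The part of the erythroid markers in the Klf1 value was not tested. Klf7, an axon growth factor related to Klf6, had means of 574 and 541.5 (log2 0.08 ± 0.18 SE). None of the 13 tested cofactors and modifiers passed, with a median log2 difference of 0.03 and a range from -0.20 (Hdac1) to 0.24 (Hdac3). Ctbp1, the partner of Klf3, had means of 3350 and 3458, and Sin3a, the partner of Klf9, Klf10 and Klf13, had 810.3 and 747.

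Upstream regulators did not pass either. The 8 tested genes of the ERK5, MEF2 and SRF pathways had a median of 0.0040 and estimates from -0.11 to 0.19; Mef2c, a MEF2 factor of cortical neurons, had means of 4785 and 4771. The 9 tested TGF-beta and nuclear receptor genes had a median of 0.04, and the thyroid hormone receptor gene Thra had means of 11288 and 10949. Of 15 tested glucocorticoid response genes, 10 had estimates below 0, with a median of -0.15, and none passed. Dusp1, a MAP kinase phosphatase that activity also induces, had a log2 difference of -0.57 ± 0.13 (SE; limma adjusted p = 0.447). Ddit4, an inhibitor of mTOR, had one of 0.22 ± 0.08 (adjusted p = 0.992), and Fkbp5, a classic glucocorticoid target, had means of 641 and 612.

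Of 15 tested genes reported as KLF targets, none passed, and the median was -0.03. At an unadjusted limma p under 0.05, 2 were lower and 1 was higher in deprived cortex, where 4.79% of all tested probe sets reached that level. Cdkn1a, the cell-cycle inhibitor that Klf4 and Klf6 activate, had means of 263 ± 37.8 and 345 ± 40.4 (SD, n = 5 each; log2 -0.37 ± 0.12 SE). Maoa, which degrades monoamines, had 433 ± 81.4 and 579 ± 85.4 (log2 -0.42 ± 0.14 SE). S1pr1, a sphingosine receptor of endothelium and lymphocytes, had 235 ± 38.1 and 174.5 ± 36.1 on a family-type probe set (log2 0.41 ± 0.16 SE). All 14 tested activity-regulated reference genes had estimates below 0, with a median of -0.52, and 12 of them had an unadjusted limma p under 0.05, against 2.36% of all tested probe sets in that direction; none passed after adjustment. Their estimates ran from -0.88 to -0.18. Klf4 (-0.44), Klf9 93527_at (-0.21) and Klf10 99602_at (-0.19) lay within that range, and the other 7 tested KLF probe sets lay above it. The upper end of the range came from reference genes without an unadjusted limma p under 0.05. The 12 that had one ran from -0.88 to -0.39, and of the tested KLF probe sets only Klf4 lay between these values. A p-value in these same data set that range, and Klf4 alone of the tested KLF probe sets had such a p. Its place there is therefore no test of likeness to the reference genes. The brighter Klf9 probe set (93528_s_at) had 0.03.

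**Figure D5:**
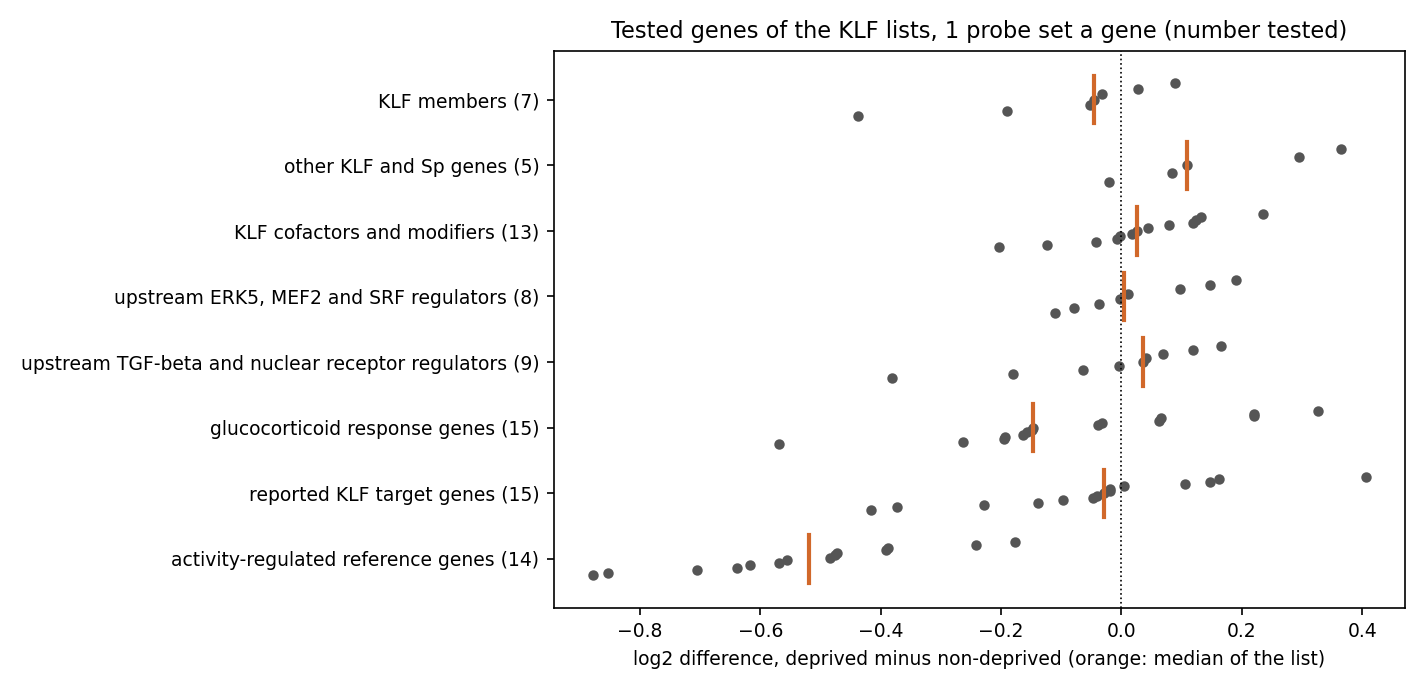
Log2 difference (deprived minus non-deprived, horizontal axis) of each tested gene of the KLF lists, 1 point a gene, with the list median in orange and the number tested in brackets. The KLF median is -0.05 and that of the activity-regulated reference genes is -0.52.

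Markers of the tissue were present and did not pass a test between groups. Tbr1, a transcription factor of cortical excitatory neurons, had means of 6307 and 6334, and Gad1, which makes GABA, 4653 and 4760.4. The excitatory list had a median log2 difference of -0.07 and the inhibitory list one of -0.0058. The astrocyte, oligodendrocyte and microglia lists had medians of 0.03, 0.15 and 0.11, and the mural and meningeal list 0.13, with Igf2 at 0.30 ± 0.13 (SE). Of the 8 tested astrocyte genes, 3 had estimates below 0. The 2 brightest, Gja1 and Aldoc, had log2 differences of 0.01 and -0.12. At an unadjusted limma p under 0.05 there were 2, both higher in deprived cortex. The angiotensinogen gene Agt had means of 188 and 91.4 (log2 0.99 ± 0.35 SE) and the glutamate transporter gene Slc1a2 had 312 and 236 (log2 0.38 ± 0.14 SE), with a limma adjusted p of 0.992 for both. Of the lymphocyte markers, 2 of 9 on the array were bright enough to be tested. The beta-actin control ratio of 3′ over 5′ signal, which rises as RNA degrades, had a mean of 1.58 in either group (SD 0.121 deprived and 0.181 non-deprived, 5 arrays each). An exact permutation test, two-sided, gave p = 0.96 (0.96 when adjusted over 3 quality measures). Median signals of the arrays were 191 to 209.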

How the data were processed

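The authors deposited intensities made with MAS5, per the submitters' processing notes, with 1 value for each array and probe set. The MAS5 version is not given in the sources used here. The mean of each array, trimmed by 2% at both ends, was 500.2 or 500.3, so the deposited arrays share a scale. RNA was extracted with Trizol, per the labels' protocols. No detection calls were used. Precision is limited by the number of arrays. Groups came from the sample titles.

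The 66 control probe sets were left out. A platform annotation with symbols updated through Entrez IDs gave 10833 probe sets 1 symbol, 396 several and 1193 none. The analysis used log2(intensity + 16); the 10th percentile of the table set this pseudocount. Fold changes on this scale understate those of dim probe sets. Probe sets with a mean below the 40th percentile were left out of the test. Limma 3.58.1 (R 4.3.3; lmFit, eBayes with trend) compared deprived with non-deprived arrays without covariates. Simulated data with the spreads of these arrays (7453 probe sets, 5 runs) held many changes at once. These were changes of 1.5- to 4-fold, 250 of each size over the runs. There, limma recovered 68% of 1.5-fold changes and 94.4% of 2-fold changes. Many changes at once ease the adjusted threshold. These shares therefore do not give the recovery of a single change in the real data, where no probe set was called.

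The members and gene lists were chosen with earlier results of these data known. Named are all KLF probe sets; from each list the members with an unadjusted p under 0.05 (at most 4 a list, not repeated for the activity list), the 2 brightest markers; and the 2 genes most like each member. Hdac1, Hdac3, Ctbp1, Sin3a, Klf1, Klf7, Mef2c, Thra and Fkbp5 fall outside this rule and were named after their values were seen, and markers are given for part of the lists. Exact permutation tests used all 252 assignments of 5 against 5 arrays; correlations of probe set pairs used 100000 permutations.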

Additional observations from a re-analysis of the deposited data

Results flagged for a closer look

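2 of the 26 KLF groups of 5 arrays held an array far from the others, by Dixon's test, which chance gives in about 5% of groups. Klf10 99603_g_at was at 823 in deprived replicate 3, where the next array was at 565 and the lowest at 519. Klf13 160617_at was at 952 in the same array, where the other deprived arrays lay between 1169 and 1208. Without that array the log2 differences were -0.26 for Klf10 99603_g_at and 0.02 for Klf13 160617_at, against -0.15 and -0.05 with it.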

How the results depend on the processing

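No KLF probe set passed an adjusted p of 0.05 in any of 208 combinations of probe set and alternative setting; the smallest limma adjusted p was 0.714 (Klf4, with the replicate number as a block). The median of the tested KLF estimates stayed below 0 in all 21 settings. Over the whole array, the count of called probe sets was 0, and 2 (Junb and Dusp6) with pseudocount 35 and again with the 60th-percentile filter, 1 (Dusp6) with the actin ratio as a covariate, 6 with the replicate block, and 0 to 5 with single arrays left out (5 without non-deprived replicate 1, 1 without deprived replicate 4). For the genes of the lists, only the brightest probe set of each gene was counted. Junb, a list gene, was called on another of its probe sets and is not in these counts. On that basis the count was 0, then 1 with that pseudocount, that filter or the actin covariate, and 4 with the replicate block. It was 0 to 4 with single arrays left out (4 without non-deprived replicate 1). The cause was not tested. Unadjusted p-values under 0.05 numbered 357 in limma and 363 in the exact permutation test, which called none after adjustment. Whether same-numbered samples are pairs is not settled. Their deviations from the group means correlated at 0.14 to 0.23 for replicates 1 to 4 and at 0.02 for replicate 5, and 4 of 5 deprived samples correlated best with their own number, which is a hint of pairing from the data and not from the labels. Because replicate 5 lay under the 0.1 asked of every pair, the samples were not treated as paired. Set against the sample of the same number, deprived signals of Klf4 99622_at and Klf10 99603_g_at were lower for 5 of 5 numbers. Those of Klf13 103369_at were higher for 5 of 5 (642.3 against 642 in replicate 4). Thus 2 of 10 tested KLF probe sets were lower in all numbers and 1 of 10 higher. Of all tested probe sets, 3.54% were lower and 4.33% higher in all numbers (7.88% in 1 direction or the other). The other probe sets of Klf10 and Klf13 did not repeat these patterns. Klf10 99602_at was lower for 3 numbers and higher for 2, and Klf13 160617_at lower for 4 and higher for 1. With the replicate block the KLF estimates were the same and their errors changed: Klf13 103369_at had 0.12 ± 0.08 (SE), Klf10 99602_at -0.19 ± 0.10 and Klf4 -0.44 ± 0.14. The filter at the 60th percentile left out Klf4 and Klf3. Signals of Klf2, Klf3 100010_at and Klf4 161185_i_at were too low for a difference to be read.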

Other observations

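For the other KLF genes, the genes with the most similar pattern over the 10 arrays, by Pearson's r as for Klf4 and with no p for the same reason, were these. Klf10 99602_at was most like B4galt6, a glycosyltransferase gene (r = 0.96, rho = 0.98), and Hspa5, the chaperone of the endoplasmic reticulum (r = 0.96, rho = 0.85). Without the 2 arrays farthest from the Klf10 median these r were 0.93 and 0.89. Klf9 93528_s_at was most like Wnk1, a kinase of ion transport (r = 0.97, rho = 0.94; 0.95 without the 2 farthest arrays), and Polr2c, an RNA polymerase subunit (r = 0.96, rho = 0.84; 0.88). Klf6 was most like Atxn2 (r = 0.94, rho = 0.92; 0.86) and Zfp275 (r = 0.92, rho = 0.94; 0.91). Klf5 was most like Rpsa (r = 0.94, rho = 0.90; 0.94) and Slc3a2 (r = 0.90, rho = 0.82; 0.73). Klf3 was most like Ccnc (r = 0.87, rho = 0.83; 0.76) and Cmtr1 (r = 0.87, rho = 0.88; 0.77). Klf13 160617_at was most like Carhsp1 (r = 0.92, rho = 0.79; 0.72) and Rogdi (r = 0.91, rho = 0.65), and the likeness to Rogdi rested on the farthest arrays, since r was 0.45 without the 2 of them. None of these 12 genes passed the test between groups. Their log2 differences ran from -0.12 (B4galt6) to 0.12 (Wnk1 and Cmtr1).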
